A study of Mus musculus with 14 samples.

Results

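Group 2 innate lymphoid cells (ILC2s) sense tissue damage through receptors for the alarmins IL-33, IL-25 and TSLP, and 8 genes of that sensing machinery are described here: the receptor chains Il1rl1, Il1rap, Il17ra, Il17rb and Crlf2, and the signalling genes Myd88, Irak4 and Irak3. The genes were chosen by symbol for their role and matched in the gene names of both the raw count and the TPM tables, which list 53278 genes. All 8 were found in both tables, and all 8 passed the filter on low counts in each comparison.

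RNA was sequenced from lung ILC2s sorted as live, lineage-, CD90.2+, CD3- cells, with about 15000 cells per culture. By the sample titles and series design each library came from 1 mouse. The study's legends to the figures with these data instead describe points as sorting samples from 2 pooled animals. In the stimulation experiment, 8 female B6 mice gave 4 unstimulated libraries, cultured in complete RPMI without IL-33, and 4 stimulated libraries, cultured for 24 h with 20 ng/mL IL-33. No time in culture is stated for each unstimulated sample, while the series design names 24 h without IL-33 and the study also names these cells ex vivo. In the Blimp-1 experiment, 3 female Blimp-1IL7RaCre mice gave the Blimp-1-deficient libraries and 3 age-matched female ControlIL7RaCre mice gave the Control libraries, and all 6 cultures received 20 ng/mL IL-33 and 20 ng/mL IL-25 for 72 h. The study's sequencing methods name IL-2 for these 72 h cultures only, its general culture protocol adds IL-2 throughout, and the labels name none, so whether the 24 h cultures held IL-2 is not settled here. Cre is driven from the Il7r locus, so that Prdm1, the gene for Blimp-1, is deleted in lymphoid cells in general and not in ILC2s alone. The age of the mice is given only as over 6 weeks, and stimulation time, cytokines and genotype differ together between the 2 experiments, so no test was made across them.

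IL-33 binds ST2, the product of Il1rl1, which then recruits the accessory chain IL-1RAcP, encoded by Il1rap. The paired intracellular domains draw in the adaptor MyD88 and the kinase IRAK4, which starts the chain towards NF-κB and the MAP kinases, while IRAK3, also named IRAK-M, lacks full kinase activity and restrains that chain. IL-25 binds IL-17RB, which pairs with IL-17RA, a chain shared by several IL-17 family receptors, and TSLP binds the chain encoded by Crlf2, which pairs with IL-7Rα and signals through JAK kinases and STAT5. In the lung, these receptors let ILC2s respond to epithelial cytokines with IL-5 and IL-13.

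The 8 genes lie on 8 chromosomes of the mouse genome (GRCm38, GENCODE M21). Il1rl1 is at chr1:40429570-40465415 on the plus strand, Il1rap at chr16:26581704-26730117 (plus), Il17ra at chr6:120463247-120487559 (plus) and Il17rb at chr14:29996135-30008896 (minus). Crlf2 is at chr5:109554709-109558993 (minus), Myd88 at chr9:119335934-119341411 (minus), Irak4 at chr15:94543643-94581815 (plus) and Irak3 at chr10:120141648-120202130 (minus). All are protein coding, and the values are sums over all exons of a gene. Transcripts for membrane-bound and soluble ST2, and transcripts from the 2 starts of Il1rl1, are therefore added together.

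The ligand-binding chains Il1rl1, Il17rb and Crlf2 each serve 1 alarmin, and the sequence before their starts is shown for that reason. RefSeq (build GRCm38.p6) gave promoter windows for 7 of the 8 genes, all but Il17ra, and each window was read over the 250 bases before the start. The lines below are printed 5′ to 3′ on the gene's strand, without bases that fall in an annotated exon. Capitals mark matches to 5 motifs. AGATAA stands for GATA factors, GAAAGT for a core of the Blimp-1 motif, TTCNNNGAA for STAT5 and TGANTCA for AP-1, and the NF-κB motif was read as GGG, any 5 bases and then CC. Matches on either strand count, and overlapping matches were counted separately.
Il1rl1, first start (chr1:40429320-40429569, plus): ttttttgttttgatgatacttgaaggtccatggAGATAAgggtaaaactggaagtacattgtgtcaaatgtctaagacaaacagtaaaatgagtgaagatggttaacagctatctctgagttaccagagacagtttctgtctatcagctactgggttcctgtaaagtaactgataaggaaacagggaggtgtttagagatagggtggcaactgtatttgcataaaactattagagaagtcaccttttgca
Il1rl1, second start (chr1:40439379-40439626, plus): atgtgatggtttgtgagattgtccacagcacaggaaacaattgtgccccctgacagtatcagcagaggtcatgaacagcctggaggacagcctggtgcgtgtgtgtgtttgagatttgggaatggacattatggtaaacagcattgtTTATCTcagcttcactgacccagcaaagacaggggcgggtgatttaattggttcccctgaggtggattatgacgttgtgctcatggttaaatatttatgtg
Il17rb (chr14:30008897-30009022, minus): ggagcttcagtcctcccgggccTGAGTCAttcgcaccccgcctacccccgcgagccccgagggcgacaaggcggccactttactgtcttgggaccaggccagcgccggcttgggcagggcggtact
Crlf2 (chr5:109558994-109559243, minus): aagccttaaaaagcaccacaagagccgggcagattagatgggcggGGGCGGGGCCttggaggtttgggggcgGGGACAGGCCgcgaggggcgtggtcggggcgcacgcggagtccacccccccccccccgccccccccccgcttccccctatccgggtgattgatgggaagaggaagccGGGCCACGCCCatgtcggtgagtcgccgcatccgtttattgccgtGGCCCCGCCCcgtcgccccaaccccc

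Both Il1rl1 windows held 1 GATA match, beginning 217 and 103 bases before the start, and neither held a match to the other 4 motifs. No other window of the 8 genes held a GATA match, and 9.99% of 32851 promoter windows of the same length did. The Il17rb window held 1 AP-1 match, which 6.75% of windows hold, and the Crlf2 window held 5 NF-κB matches, of which the ones beginning 71 and 70 bases before the start overlap. NF-κB matches also stood in the windows of Il1rap (6), Irak3 (2, in its first window) and Irak4 (1). At least 1 NF-κB match stood in 45.8% of all windows, and the Crlf2 window is 71.6% G and C against 37.6% for the first Il1rl1 window. Myd88 had 1 STAT5 match, 46 bases before its start, and 7.02% of windows hold one. Among the 8 genes, GAAAGT was found in the window of Irak4 alone, 187 bases before its start, and 12.3% of windows hold it. These matches are letters in a window and no binding was measured here.

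Total counts ran from 10470125 to 32849428 among the stimulation libraries and from 13570188 to 76448945 among the Blimp-1 libraries, and in both experiments the shallowest library stood apart from its group. In Control replicate 2, 76.8% of counts fell in 7 loci treated here as like ribosomal RNA (CT010467.1, Gm23935, Gm26917, Lars2, Mir6236, Gm15564 and mt-Rnr2). The origin of the reads in these loci was not tested, and 3150795 counts were left for all other genes. The share was 4.12% in stimulated replicate 3 and at most 0.94% in every other library, and stimulated replicate 3 also correlated with its own group at r from 0.81 to 0.82 (log2 CPM), where the other stimulated pairs ran from 0.987 to 0.991. The 8 genes are therefore described with all libraries and without that library.

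The sorted cells carried the ILC2 markers, with 17 of 18 listed marker genes at a mean of at least 1 TPM in each group and Gata3 at 864 to 938 TPM in the unstimulated and 349 to 490 TPM in the stimulated libraries (TPM recomputed without the 7 loci, here and below). Several other ILC2 markers were also lower after IL-33 without overlap, among them Thy1, at 780 to 942 and 102 to 138 TPM, and Nmur1, at 470 to 520 and 134 to 211 TPM, while Il5 and Il13 were higher. Mast cells and basophils also carry ST2, and of their 12 listed markers 5 reached a mean of 1 TPM in the unstimulated group and 1 did in the stimulated group. Their summed level was 148 to 190 TPM unstimulated and 45.0 to 58.6 TPM stimulated, and Kit alone made up 118 to 142 and 40.8 to 55.8 TPM of these sums. Cpa3, a mast cell protease, was at 15.8 to 30.2 TPM unstimulated and at most 0.126 TPM stimulated, whereas Ms4a2, a chain of the mast cell IgE receptor, was at 0 in all 8 libraries and Fcer1a reached at most 0.565 TPM. Cd200r3, on the same list, was at 7.03 to 10.7 TPM unstimulated and 0.325 to 0.743 TPM stimulated. T cell receptor transcripts moved the same way, with a sum of 735 to 865 TPM unstimulated and 158 to 225 TPM stimulated over 11 listed T cell markers, chiefly Trbc2. Epithelial, endothelial and stromal markers summed to 325 to 465 TPM unstimulated and 126 to 233 TPM stimulated, stimulated replicate 3 being the highest of its group. ILC1 and NK cell markers also lay lower after IL-33 without overlap (17.4 to 24.9 and 6.23 to 14.4 TPM), while the sums of myeloid markers (243 to 520 and 81.7 to 274 TPM, chiefly Lyz2) and of B cell markers (56.3 to 68.3 and 37.6 to 57.1 TPM) overlapped. The part of these cells in the results below was not tested. In bulk RNA, fewer cells of a type and less RNA per cell cannot be told apart.

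The first comparison addressed whether the alarmin receptor genes of ILC2s differed between cultures with 24 h of IL-33 and unstimulated cells. Time in culture of the unstimulated cells and use of IL-2 are not settled. Effects of IL-33 and of culture therefore cannot be told apart. Falls and rises given below are differences between these groups. Most receptor chains fell: Il17rb, the binding chain for IL-25, fell to 0.118 of its unstimulated level, and Il1rl1, Il17ra and Crlf2 fell to 0.546, 0.469 and 0.573 of theirs. Il1rap was not called. Among the signalling genes, Irak4 fell and Irak3, the inhibitory family member, rose. With edgeR's quasi-likelihood test on all 8 libraries, 1 of the 8 genes was higher and 5 were lower at an adjusted p below 0.05, against 16.2% higher and 16.1% lower (32.3% in all) of the 15466 genes tested. The median log2 fold change was -0.84 over the 8 genes and 0.06 over all genes tested.

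Il1rl1 was the most abundant of these genes in every library. Its level in CPM, read counts scaled to library size with TMM factors, was 2436, 2382, 2375 and 2570 in the unstimulated libraries and 1474, 1284, 1096 and 1481 in the stimulated ones. The stimulated libraries all lay below the unstimulated ones, and stimulated replicate 3 was the lowest. The log2 fold change was -0.87 ± 0.12 (SE, n = 4 and 4; edgeR adjusted p = 0.000894) and -0.79 ± 0.06 without that replicate (edgeR adjusted p = 4.39e-06). By TPM, Il1rl1 stood between rank 60 and 83 of all genes in the unstimulated libraries and between rank 198 and 237 after IL-33, so that it remained among the abundant transcripts.

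Il1rap, the chain that ST2 needs for signalling, was at 20.2, 18.3, 20.5 and 19.2 CPM unstimulated and 21.7, 21.1, 20.7 and 19.0 CPM stimulated. The groups overlapped, stimulated replicate 3 included. The log2 fold change was 0.08 with all libraries and without stimulated replicate 3 (edgeR adjusted p = 0.558 and 0.436), and its 95% interval with all libraries ran from -0.14 to 0.30, which excludes a fall of the size seen for Il1rl1. Its sign depended on scaling, with -0.08 for library size alone and -0.25 to -0.21 on TPM, none of them called. In TPM, its stimulated libraries (4.50 to 5.57) lay below the unstimulated ones (5.77 to 6.40).

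Il17rb showed the largest change of the 8 genes. Unstimulated libraries held 21.6, 28.4, 28.2 and 35.9 CPM, and stimulated libraries 4.63, 2.82, 1.87 and 4.11 CPM. The lowest unstimulated library was thus above 4 times the highest stimulated one, and the stimulated values rest on 141, 87, 19 and 116 reads. Il17rb fell by 3.07 on the log2 scale, with a 95% interval from -3.78 to -2.36 (edgeR adjusted p = 0.00023), and by 2.89 without stimulated replicate 3. Its partner Il17ra fell less, from 124, 125, 123 and 128 CPM to 67.3, 67.2, 30.9 and 69.4 CPM. The low value is replicate 3, and the log2 fold change moved from -1.09 ± 0.23 with it to -0.88 ± 0.04 without it (edgeR adjusted p = 0.00857 and 2.19e-07).

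Crlf2, the TSLP-binding chain, was at 82.7, 65.5, 72.1 and 63.2 CPM unstimulated and at 46.7, 45.8, 21.4 and 48.6 CPM stimulated. No stimulated library reached the unstimulated range, and replicate 3 was again lowest. The fall of 0.80 on the log2 scale was called with all libraries (edgeR adjusted p = 0.0385), and the fall of 0.59 without stimulated replicate 3 was called with a narrower interval, from -0.79 to -0.39 (edgeR adjusted p = 0.000332). The call with replicate 3 present was lost when any of unstimulated replicates 1, 2 and 3 or stimulated replicates 1, 2 and 4 was left out, with edgeR adjusted p from 0.0534 to 0.0895, and without the filter on low counts (0.0718).

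Myd88, the adaptor shared by the IL-1 receptor family and most Toll-like receptors, changed least among the signalling genes. It stood at 92.1, 83.2, 83.4 and 90.1 CPM unstimulated and 76.3, 79.1, 47.7 and 72.5 CPM stimulated, without overlap. The log2 fold change of -0.34 was not called with all libraries (edgeR adjusted p = 0.122), whereas -0.20 was called without stimulated replicate 3 (edgeR adjusted p = 0.0149). Of 20 alternative fits, 7 called Myd88 lower, among them voom, library size alone and limma on TPM with all libraries. Irak4, the kinase that MyD88 recruits first, fell from 47.5, 44.8, 47.2 and 50.2 CPM to 23.0, 21.9, 12.4 and 24.9 CPM. Its log2 fold change was -1.20 ± 0.20 with all libraries and -1.03 ± 0.07 without replicate 3 (edgeR adjusted p = 0.00265 and 1.12e-06).

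Irak3 was the single gene of the 8 that rose. It held 27.1, 28.0, 26.3 and 27.1 CPM in the unstimulated libraries and 59.7, 64.1, 40.7 and 79.2 CPM after IL-33. Every stimulated library was above every unstimulated one, replicate 3 being the lowest of the 4. The log2 fold change was 1.17 ± 0.18 with all libraries and 1.32 ± 0.09 without that replicate (edgeR adjusted p = 0.00185 and 1.41e-06).

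**Figure D1:**
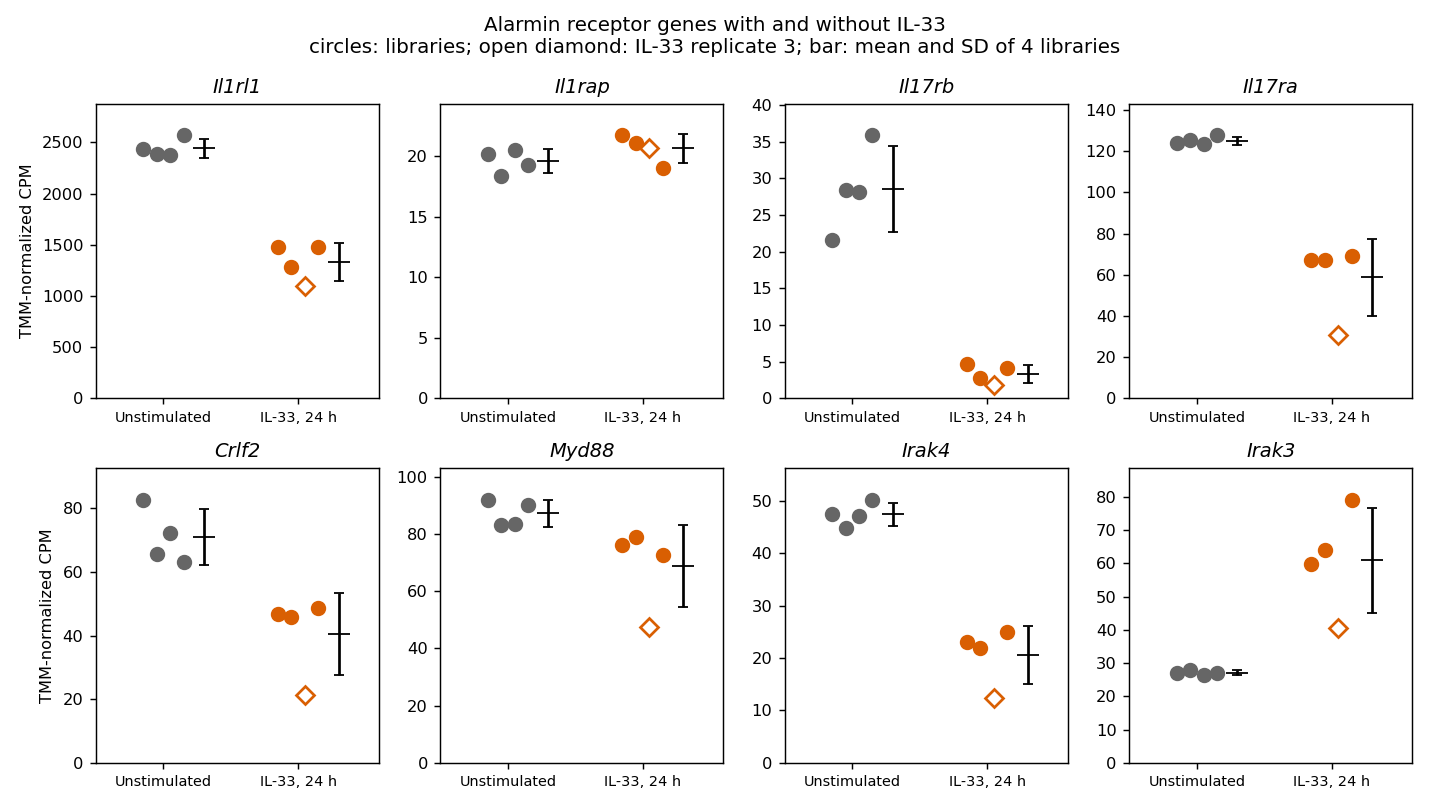
Each panel plots 1 gene, with TMM-normalized CPM on the vertical axis from 0 and the unstimulated and IL-33-stimulated libraries side by side. Circles are libraries, the open diamond is stimulated replicate 3, and bars give the mean and SD of 4 libraries; 6 genes lie lower without overlap after IL-33, Il1rap overlaps and Irak3 lies higher.

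In all, the 2 groups did not overlap for 7 of the 8 genes, against 37.9% of genes tested. Of these, 6 lay lower, against 20.9%, and 1 lay higher, against 17%. With stimulated replicate 3 left out these 7 still did not overlap, against 58.6% (28.6% higher and 30% lower). Without stimulated replicate 3, 1 gene was higher and 6 were lower, against 27.5% and 29.7% of 15733 genes tested (57.2% in all), and the median was -0.69 over the 8 genes and -0.05 over all. Il1rl1, Il17ra, Il17rb, Irak4 and Irak3 kept their call and direction in each of the 20 alternative fits, leaving out any single library included.

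Per-length levels (TPM) allow the genes to be ordered within a group. In unstimulated ILC2s, Il1rl1 was first at 1243 ± 65.1 TPM (SD, n = 4), followed by Crlf2 at 166 ± 15.0, Myd88 at 119 and Il17ra at 50.7 TPM, each apart from the next in every library. Irak4 at 33.2, Il17rb at 27.1 and Irak3 at 25.9 TPM followed, with overlapping ranges between neighbours, and Il1rap was last at 6.04 TPM. After IL-33, Il1rl1 remained first at 545 ± 74.6 TPM, Crlf2, Myd88 and Irak3 followed at 76.6, 75.5 and 46.6 TPM with overlapping ranges between neighbours, and Il17rb was last at 2.55 TPM, below Il1rap at 5.13 TPM. Without replicate 3, Irak3 at 51.7 TPM was apart from Myd88 at 83.3 TPM.

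After 72 h with IL-33 and IL-25, the order in Blimp-1-deficient cells was Il1rl1 (803 TPM), Crlf2 (175), Myd88 (105) and Irak3 (69.8), each apart from the next. Il17ra (30.1), Il17rb (27.9) and Irak4 (21.7) overlapped between neighbours, and Il1rap was last (6.93). The 2 Control libraries other than replicate 2 gave the same first 5 places, with Il1rl1 at 1020, Crlf2 at 125, Myd88 at 113, Irak3 at 60.3 and Il17ra at 33.7 TPM, and Crlf2 overlapped Myd88. Control replicate 2 was lower for every gene (402 TPM for Il1rl1), and in the deposited TPM, which include the 7 loci, its Il1rl1 value was 24.7. Il17rb was thus at 10.5 and 23.3 TPM in these 2 Control libraries, 23.9 to 30.2 TPM in Blimp-1-deficient libraries and 1.42 to 3.64 TPM after 24 h of IL-33. These groups differ in time, cytokines and genotype at once, which cannot be told apart.

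**Figure D2:**
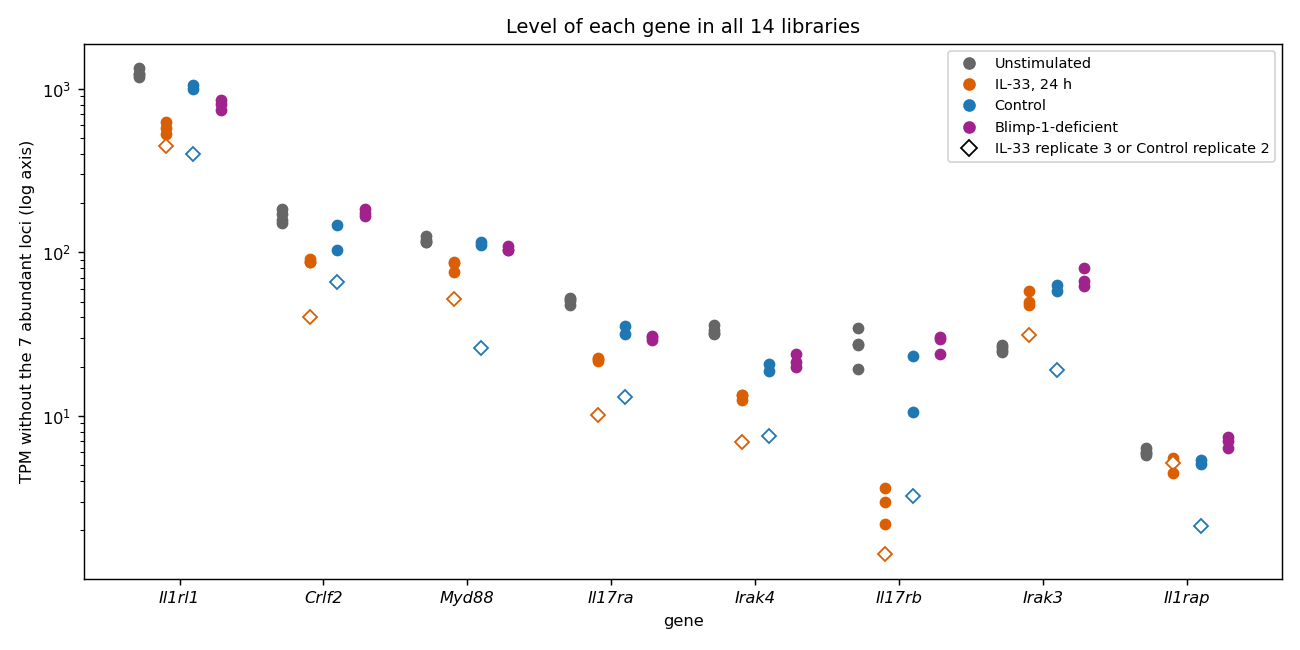
TPM recomputed without the 7 abundant loci is plotted on a log axis for each gene in all 14 libraries, coloured by group, with stimulated replicate 3 and Control replicate 2 as open diamonds. Il1rl1 lies above the other genes in every library, and Il17rb spans the widest range, from 1.42 to 34.6 TPM.

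Ratios of partner chains within a library do not depend on how libraries are scaled, and 4 were taken after the levels had been seen, as a description. The Il1rl1 to Il1rap ratio of TPM was 191 to 220 in unstimulated libraries and 87.3 to 128 after IL-33. Among the 72 h cultures it was 194, 189 and 196 for the 3 Controls in turn, against 116, 117 and 114 with Blimp-1 lost. Control replicate 2, whose Il1rap value rests on 56 reads, did not stand apart on this scale. The Il17ra to Il17rb ratio was 1.52 to 2.45 unstimulated and 6.22 to 10.2 after IL-33. It was 1.53 to 4.00 in Control against 0.978 to 1.27 with Blimp-1 lost. The value of 4.00 is Control replicate 2, whose Il17rb value rests on 28 reads, and Control replicates 1 and 3 were at 3.02 and 1.53. For the TSLP receptor pair, the Il7r to Crlf2 ratio overlapped in both comparisons, at 0.481 to 0.690 unstimulated and 0.649 to 1.185 after IL-33, and at 0.242 to 0.521 in Control and 0.405 to 0.520 with Blimp-1 lost. The value of 1.185 is stimulated replicate 3, and the other stimulated libraries reached at most 0.710. The ratio of Irak3 to Irak4, the inhibitory family member over the proximal kinase, was 0.737 to 0.852 unstimulated and 3.54 to 4.48 after IL-33, without overlap, and overlapped between Control (2.55 to 3.05) and Blimp-1-deficient libraries (2.90 to 3.36).

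The genes whose log2 CPM ran most like the ligand-binding chains over the 8 stimulation libraries were ranked among 10809 genes with a mean of at least 5 CPM. For Il1rl1 these were Cd84, Sept1, Cd200r1, Pigh and Susd3, for Il17rb Zadh2, Tmem131l, Tnk2, Fam102b and Cd200r1, and for Crlf2 Jpt1, Micu2, Emp3, Bmp7 and Rex1bd. Pearson's r was at least 0.993 for each of these 15 pairs, but it rests on 2 groups of 4 libraries and exceeded 0.9 for 1501, 1423 and 1208 genes. Cd200r1, an inhibitory receptor of the immunoglobulin family, was on both the Il1rl1 and the Il17rb list.

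The second comparison addressed whether loss of Blimp-1 changed the same genes in activated ILC2s. Prdm1 checked the labels: it was at 75.2, 92.8 and 74.0 CPM in Control and 14.6, 11.5 and 11.4 CPM in Blimp-1-deficient libraries, a log2 fold change of -2.68 (edgeR adjusted p = 0.00441) and of -2.57 without Control replicate 2 (0.000134). Leaving out any Blimp-1-deficient replicate kept the change between -2.80 and -2.62 while the adjusted p rose to between 0.05 and 0.0656. Reads from the undeleted part of Prdm1 count towards its level. With all 6 libraries none of the 8 genes was called, against 0.756% of 17335 genes tested by edgeR (0.45% higher and 0.306% lower), and 1 of the 8, Il1rap, had an unadjusted p under 0.05 (12.5% against 11.9% of all genes). DESeq2 also called none of the 8 with all 6 libraries, against 556 genes higher and 550 lower of 17248 tested. Without Control replicate 2, Il1rl1 and Il17ra were lower in Blimp-1-deficient cells and the other 6 genes were not called, against 8.25% higher and 5.72% lower (14% in all) of 17968 genes tested. The median log2 fold change of the 8 genes was 0.18 with all libraries and 0.09 without Control replicate 2, against -0.02 and 0.01 over all genes tested.

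Il1rl1 was at 1881, 1568 and 1731 CPM in Control and 1281, 1272 and 1462 CPM in Blimp-1-deficient libraries, with every deficient library below every Control library. The log2 fold change was -0.37 ± 0.15 with all libraries (edgeR adjusted p = 0.42). Without Control replicate 2 it was -0.42, with a 95% interval from -0.64 to -0.21 (edgeR adjusted p = 0.0267). Voom with sample weights, which keeps all 6 libraries and lowers the weight of a deviating one, gave -0.39 (adjusted p = 0.0275). The signs of Il1rl1 and Il17ra turned positive, without a call, under library size alone and on TPM with all 6 libraries, scales that take in the 7 loci of Control replicate 2. The TMM factor was 0.303 for Control replicate 2 and 1.22 to 1.35 for the others, so CPM values run lower with it than without it. On the scale without it, Il1rl1 was at 2393 and 2176 against 1644, 1616 and 1849 CPM.

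Il1rap pointed the other way. Control libraries held 16.0, 13.6 and 14.5 CPM and Blimp-1-deficient ones 18.2, 17.8 and 21.1 CPM, without overlap, and the log2 fold change of 0.36 was not called with all libraries (edgeR adjusted p = 0.3) or without Control replicate 2 (0.33, edgeR adjusted p = 0.0647). DESeq2 without Control replicate 2 called Il1rap higher (adjusted p = 0.0395). Il17rb was spread among the Controls, at 10.2, 6.82 and 21.8 CPM, and lay at 25.6, 21.9 and 27.4 CPM in the deficient libraries. Control replicate 3 lay just below the lowest deficient library, the value of Control replicate 2 rests on 28 reads, and neither fit called the difference (log2 0.89 and 0.65; edgeR adjusted p = 0.441 and 0.161). Il17ra was at 71.6, 63.8 and 78.0 CPM in Control and 61.3, 65.2 and 62.6 CPM in deficient libraries, which overlapped. Without Control replicate 2 the difference of -0.24 was called (edgeR adjusted p = 0.0415), which is 0.85-fold.

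Crlf2 ran from 40.0 to 55.5 CPM in Control and from 57.3 to 68.2 CPM in Blimp-1-deficient libraries, without overlap. Its log2 fold change of 0.34 was not called (edgeR adjusted p = 0.459), nor was 0.42 without Control replicate 2 (edgeR adjusted p = 0.0814), whereas DESeq2 without that library called it higher (log2 0.41, adjusted p = 0.0226). Myd88 was at 77.8, 37.8 and 72.2 CPM in Control, replicate 2 being low on 155 reads, and between 64.0 and 65.9 CPM in the deficient libraries. Its log2 fold change was 0.04 with all libraries and -0.19 without replicate 2, and neither was called (edgeR adjusted p = 0.986 and 0.0695). Irak4 and Irak3 overlapped between the groups, with log2 fold changes of 0.11 and 0.26, and without Control replicate 2 their 95% intervals were -0.12 to 0.22 and -0.07 to 0.33.

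**Figure D3:**
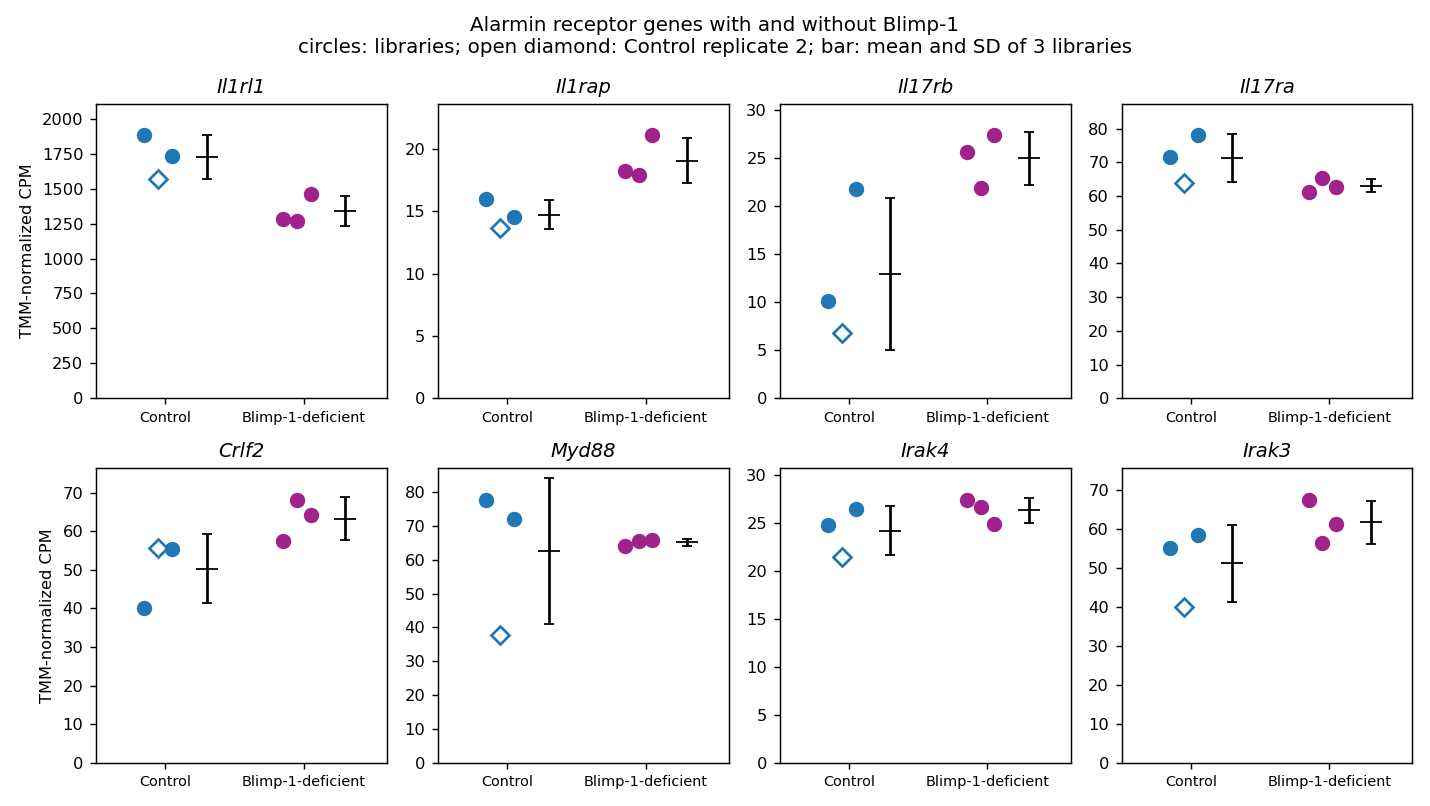
TMM-normalized CPM from the fit of all 6 libraries is plotted from 0 for each gene in Control and Blimp-1-deficient libraries. Circles are libraries, the open diamond is Control replicate 2 and bars give the mean and SD of 3; Il1rl1 lies lower and Il1rap, Il17rb and Crlf2 higher in the deficient libraries without overlap on this scale, while the other 4 genes overlap.

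**Figure D4:**
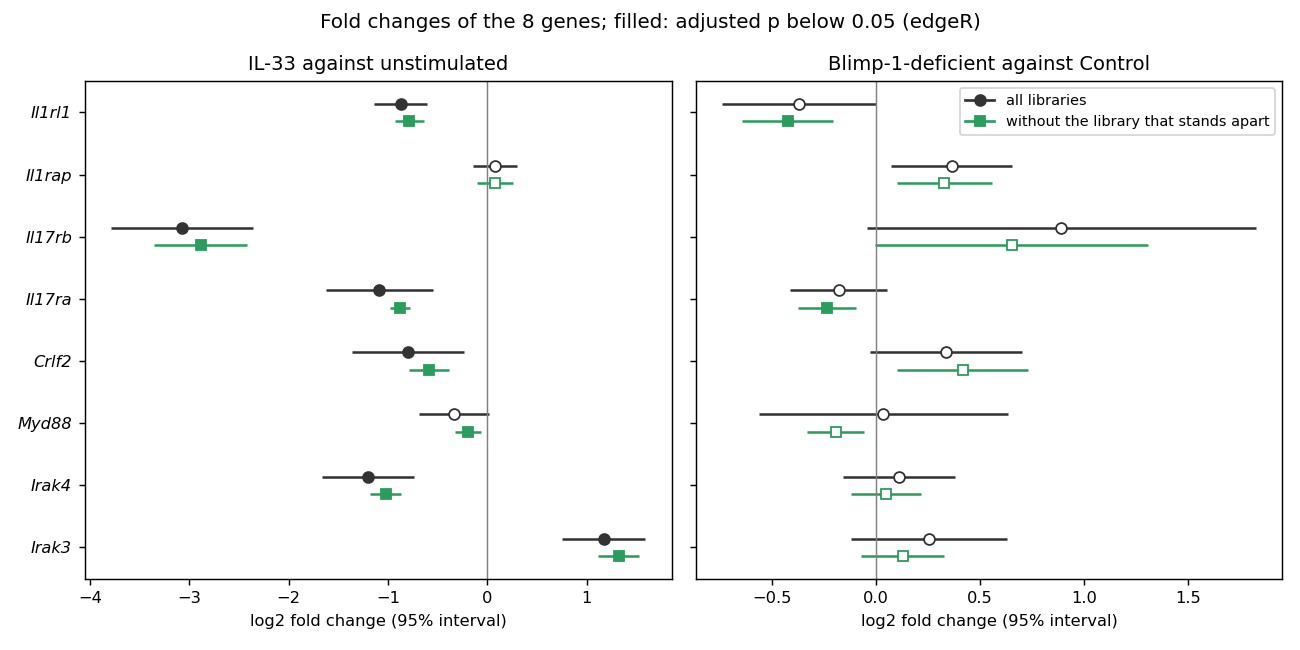
Log2 fold changes (horizontal axis) with 95% intervals are shown for both comparisons, with all libraries (circles) and without stimulated replicate 3 or Control replicate 2 (squares), and filled symbols have an edgeR adjusted p below 0.05. Leaving out the library narrows every interval, and the axes of the 2 panels differ in range.

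In the Blimp-1 experiment, the summed mast cell and basophil markers were at 71.1 and 75.7 TPM in Control replicates 1 and 3 and at 92.7 to 108 TPM in the Blimp-1-deficient libraries, of which Kit made up 73.6 to 94.9 TPM. Control replicate 2 had 31.8 TPM of these markers, the lowest ILC2 marker sum (11658 TPM against 34514 or more in the other 5 libraries, most of it Il5 and Il13 in all 6) and the highest sum of epithelial, endothelial and stromal markers (886 TPM). The latter sum was 144 and 205 TPM in the other 2 Controls and 339 to 423 TPM with Blimp-1 lost. Marker sums of T cells (92.4 to 189 and 210 to 234 TPM) and of ILC3s (3.53 to 17.3 and 34.6 to 100.4 TPM) also lay higher with Blimp-1 lost, without overlap over all 6 libraries. Il22 alone made up 1.16 to 13.5 TPM of the ILC3 sum in Control and 22.2 to 79.6 TPM with Blimp-1 lost, and the sum of ILC1 and NK cell markers overlapped (22.9 to 55.0 and 10.99 to 38.7 TPM). That overlap rests on Control replicate 2 (22.9 TPM), and Control replicates 1 and 3, at 55.0 and 40.6 TPM, lay above every deficient library. Single ILC2 markers differed in both directions, with Icos at 106 to 340 TPM in Control and 598 to 684 TPM with Blimp-1 lost, Thy1 at 70.0 to 189 and 236 to 309 TPM, and Klrg1 at 571 and 582 TPM in Control replicates 1 and 3, 165 TPM in replicate 2 and 252 to 368 TPM with Blimp-1 lost. Ms4a2 was at most 0.167 TPM and Fcer1a at most 0.104 TPM in the 6 libraries. Cd200r3, also on the mast cell and basophil list, was at 0.719 to 4.38 TPM in Control and 9.84 to 13.6 TPM with Blimp-1 lost. The part of these cells in the Blimp-1 comparison was not tested. With all 6 libraries the groups did not overlap for 4 of the 8 genes, against 22.6% of genes tested, and without Control replicate 2 for 6 of 8, against 50.1%. Of these, 1 lay lower with all libraries (background 10.8%) and 3 lay higher (background 11.8%).

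Around these 8 genes, 59 further genes of the 3 pathways were followed, from the ligands to the kinases and inhibitors. After IL-33, 55 were tested with all libraries and 8 were higher and 10 lower (32.7%, near the 32.3% of all genes), with a median log2 fold change of -0.02. Without stimulated replicate 3, 19 were higher and 17 lower (65.5% against 57.2% of all genes). Of the ligands, Il33 itself rose from a mean of 0.68 to 2.56 CPM, while Il25 had no counts and Tslp was too low to test. In the IL-17 receptor family, Il17re and Il17rd fell (log2 -1.20 and -0.66), and without stimulated replicate 3 all 3 of Il17rc, Il17rd and Il17re were lower. Il7r, the partner of the Crlf2 chain, fell by 0.47 (edgeR adjusted p = 0.00731), whereas Jak2, a kinase of that receptor, rose from 187 to 541 CPM, a log2 fold change of 1.54 (edgeR adjusted p = 3.06e-05). Without stimulated replicate 3 the log2 fold changes were 2.04 for Il33, -0.40 for Il7r and 1.62 for Jak2, all called.

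The remaining kinases of the IRAK family moved with Irak4: Irak1 fell by 0.57 and Irak2 by 0.74 on the log2 scale (edgeR adjusted p = 0.00142 and 0.00303), and by 0.51 and 0.63 without stimulated replicate 3. In all, 1 of the 12 listed adaptors, IRAK kinases, TRAF ligases and ubiquitin-conjugating enzymes rose and 2 fell (25%), against 32.3% of all genes. Of 16 listed downstream kinases and their partner subunits 2 rose and 3 fell (31.2%), the partner subunit gene Tab2 among the latter (log2 -0.44). Without stimulated replicate 3 these shares were 41.7% and 68.8% against 57.2%. Further down the chain, Map3k8, which activates the ERK pathway, rose by 1.64, while Map2k6, a p38 kinase kinase, and Mapk14, a p38 kinase, fell by 0.83 and 0.71. Map2k3, another p38 kinase kinase, was at 0.10 and not called with all libraries, and was higher without stimulated replicate 3 (log2 0.26, edgeR adjusted p = 0.00752). Among 10 tested inhibitors and ubiquitin regulators 3 rose and 1 fell (40% against 32.3% of all genes), and without stimulated replicate 3, 6 rose and 2 fell (80% against 57.2%). Tnfaip3, the gene for the NF-κB inhibitor A20, rose from 30.0 to 257 CPM (log2 3.10 ± 0.20, edgeR adjusted p = 3.37e-05), and its binding partner Tnip1 (log2 0.90) and the ubiquitin ligase Peli1 (log2 0.95) rose as well. Without stimulated replicate 3 the log2 fold changes were 1.79 for Map3k8, 3.26 for Tnfaip3, 1.05 for Tnip1 and 1.01 for Peli1, all called. Peli2 fell (log2 -1.06, edgeR adjusted p = 0.0442) at a mean of 0.52 CPM after IL-33. The call of Peli2 was lost without any of unstimulated replicates 1 to 4 or stimulated replicates 1 and 2, and that of Map2k6 without unstimulated replicate 2 or 4. Only 7 of the 17 alternative fits that tested Peli2 called it.

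With Blimp-1 lost, none of 55 pathway genes was called with all 6 libraries by edgeR, against 0.756% of all genes, and 10 had an unadjusted p under 0.05 (18.2% against 11.9% of all genes). Without Control replicate 2, 11 of 56 were higher and 3 lower (25% against 14% of all genes). The higher ones with the largest change were Il17re (log2 1.37), the IL-1 receptor Il1r1 (1.08), Tnip1 (0.71), Tnfaip3 (0.64) and Jak2 (0.53), and the lower ones were Map2k6 (-0.87), Peli1 (-0.64) and Mapk14 (-0.28), with edgeR adjusted p from 0.00146 to 0.0288. Peli1 therefore rose after IL-33 and was lower without Blimp-1 in this fit. Over all 6 libraries Il17re and Il1r1 had log2 fold changes of 0.90 and 0.56, with overlapping groups and neither called (edgeR adjusted p = 0.501 and 0.652). In the same fit edgeR gave Peli1 and Map2k6 an adjusted p of 0.0544, whereas DESeq2, voom and edgeR on genes with a mean count of at least 50 called both lower. DESeq2 and voom with all 6 libraries also called Tnip1 and Tnfaip3 higher. Leaving out Control replicate 2, Il7r was higher with Blimp-1 lost (log2 0.50) and not called with all libraries (log2 0.65, edgeR adjusted p = 0.19), and Cre is driven from the Il7r locus in mice of both genotypes by their names.

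**Figure D5:**
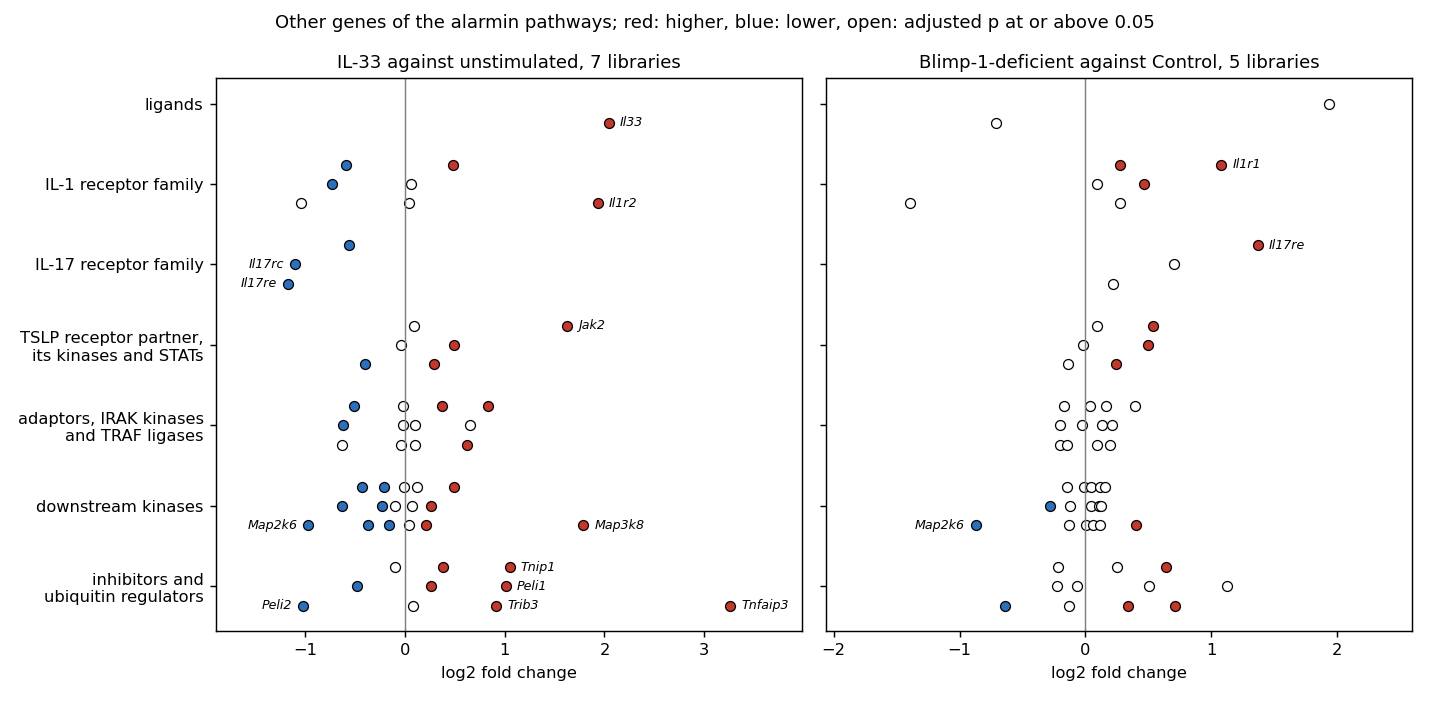
Each point is 1 of the tested genes of the 59-gene pathway list, placed by sublist, with its log2 fold change from the fit without stimulated replicate 3 (left) or without Control replicate 2 (right). Red marks higher, blue lower and open symbols an edgeR adjusted p at or above 0.05, and Tnfaip3 at 3.26 lies farthest to the right after IL-33.

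Il1rl1 sits in a cluster of IL-1 receptor family genes on chromosome 1, and the next gene, Il18r1, starts 136 bases after its end. Il18r1, the binding chain for IL-18, also fell after IL-33, from a mean of 20.7 to 11.3 CPM (log2 -0.88, edgeR adjusted p = 0.026), although its call was lost when unstimulated replicate 2, 3 or 4 or stimulated replicate 1 or 4 was left out. Of the 20 alternative fits, 13 called Il18r1. Il18rap, which follows, was at 204 and 195 CPM (log2 -0.06, 95% interval -0.38 to 0.25), while Il1r2, Il1r1 and Il1rl2 on the other side were not called with all libraries. Without stimulated replicate 3, Il1r2 (log2 1.94) and Il1rl2 (0.48) were higher and Il1r1 (-0.59) was lower. Without Blimp-1, and leaving out Control replicate 2, Il18r1 (log2 0.47), Il18rap (0.27) and Il1r1 (1.08) were higher while Il1rl1 was lower. In that fit these genes of the cluster did not share a direction. With all 6 libraries Il18r1 (log2 0.27), Il18rap (0.45), Il1r1 (0.56), Il1rl2 (0.07), Il1r2 (-1.12) and Il1rl1 (-0.37) were not called.

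The setting for strand is not given in the sources used here, and 5 of the 8 genes share exon bases with a gene on the opposite strand. The overlaps are 290 bases of Myd88 with Acaa1a (11.3% of its exon bases), 395 of Irak4 with Twf1 (7.87%), 192 of Irak3 with Tmbim4 (5.22%), 552 of Il1rap with Gm20319 (4.86%), 141 of Il17rb with Actr8 (3.80%) and 28 of Irak3 with Gm47009 (0.762%). Tmbim4 also rose after IL-33 (log2 0.97) and Acaa1a fell (log2 -0.80), whereas Twf1, which overlaps Irak4, was not called with all libraries (log2 0.10) and was higher without stimulated replicate 3 (log2 0.21). Actr8 fell by 0.32 where Il17rb fell by 3.07. Il1rl1, Il17ra and Crlf2 share no exon base with another gene and no stretch of 75 bases with another annotated transcript.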

How the data were processed

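Reads came from SMART-seq v4 cDNA and Nextera XT libraries, sequenced as 75-base pairs on a NextSeq 2000. Per the study's methods, adaptors were trimmed with cutadapt 1.18, reads were aligned to GRCm38 with HISAT2 2.1.0 and genes were counted with Subread. The submitters' processing notes also list Bowtie2, DESeq2 and mm10. The deposited counts are raw whole numbers per gene, and the deposited TPM were made by the authors from those counts and the table's gene lengths. TPM recomputed here from counts and lengths differed from them by at most 1.99e-13 of their value. Annotation release and strand setting are not given in the sources used here. Gene lengths equalled GENCODE M21 exon unions for 2387 of 2487 genes checked and for all 8 genes described.

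Counts were tested with edgeR 4.0.16 (TMM, default filterByExpr, quasi-likelihood F test, two-sided, Benjamini-Hochberg over all genes tested, threshold 0.05) in R 4.3.3, each experiment separately. SE is the absolute log2 fold change divided by the square root of F, and intervals are 95%. TPM without 7 abundant loci were rescaled to the same total. Alternatives were DESeq2 1.42.0, limma 3.58.1 on log2(TPM + 1) and log2(TPM + 0.1), voom with sample weights, other scalings and filters, a replicate block and leaving out libraries. The tests were first run on simulated data. Libraries came from separate mice by the series design, so p-values measure the spread between mice, and no 2 libraries agreed within sampling noise. Named genes were the 8 genes, Prdm1, up to 5 pathway genes each way per comparison among those called both with and without the doubted library, stimulated replicate 3 or Control replicate 2 (for Blimp-1, where none was, those called without it), and neighbours or overlapping genes. Other pathway genes named to complete a group (Il17rc, Il17rd, Il7r, Irak1, Map2k3, Mapk14, Tab2, Tnip1) and the gene ratios were chosen after their values were seen. The 8 genes, the lists and the doubted libraries were chosen with earlier results of these data known.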

Additional observations from a re-analysis of the deposited data

Results flagged for a closer look

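Among the 8 genes in the 2 groups of 4 libraries, 16 Dixon tests were made. Chance marks about 1 in 20 of independent tests. These tests share their libraries, and stimulated replicate 3 was already doubted, so that rate does not apply here. Marked were Il17ra, at 30.9 CPM in stimulated replicate 3 against 67.2 CPM or more in the other stimulated libraries, and Crlf2, at 21.4 CPM in the same library against 45.8 CPM or more. Both values lie in the library with the lowest depth of the stimulation experiment, 10470125 counts, and the cause was not tested.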

How the results depend on the processing

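After IL-33, 1 of the 8 genes was higher in every alternative and 4 to 6 were lower (4 to 6 when leaving out 1 library in turn). Genes called in all, 2508 higher and 2484 lower, became 4328 and 4666 without stimulated replicate 3, 4578 and 4297 with DESeq2 without it, 4556 and 4877 with voom, and 930 to 1032 and 4198 to 4655 with limma on TPM. The share of calls that were higher, 50.2%, was 32.8% with library size alone, 36.9% without the 7 loci and 18.1% with limma on log2(TPM + 1), where the median of all genes shifted to -0.25. Without Blimp-1, no alternative with all 6 libraries called a member except voom (1 lower, against 926 of 17335 genes tested). Leaving out 1 library gave 0 higher and 0 to 2 lower, the 2 being without Control replicate 2. DESeq2 without Control replicate 2 called 2 higher (Il1rap and Crlf2) and 3 lower, against 1932 higher and 1630 lower of 18296 genes tested. Among the 3 was Myd88 at -0.20 (DESeq2 adjusted p = 0.0405) against 0.04 with edgeR on all libraries. With limma on log2(TPM + 1) and no Control replicate 2, 1 was lower, against 575 of 14389 genes tested. Genes called in all, 78 higher and 53 lower, became 556 and 550 with DESeq2, 149 and 107 with a mean count of at least 50, 1295 and 926 with voom, 1932 and 1630 with DESeq2 without Control replicate 2, 1076 and 575 with limma on TPM without it, at most 1 each way with limma on all TPM, and 0 to 1483 higher and 0 to 1027 lower when leaving out 1 library. With library size alone the median of all genes was 0.45 and with limma on log2(TPM + 1) 1.28, and Il1rl1 was then at 0.08 (adjusted p = 0.959) and, on log2(TPM + 0.1), at 1.42 (adjusted p = 0.534). The fall of Prdm1 was not called under 8 of 19 alternatives, with adjusted p up to 0.641. Each library came from its own mouse by the series design, so replicate numbers were not taken as pairs. The sample titles repeat the mouse numbers across groups. Deviations of same-numbered libraries correlated at -0.12 to 0.43 (3 of 4 above 0.1) and at -0.13 to 0.10. The replicate block left 1 of the 8 genes higher and 4 lower after IL-33, without Crlf2 (adjusted p = 0.0565) (1802 and 1898 genes in all) and none without Blimp-1 (0 genes). The causes were not tested. Few reads limit Il17rb in stimulated replicate 3 (19 reads) and Il17rb, Il1rap and Myd88 in Control replicate 2 (28, 56 and 155 reads).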
